A study of Mus musculus with 4 samples.

Results

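The early B lineage genes examined here are 10 genes that mark or build the first stages of B cell development, read out in leukemia stem cells (LSCs), the cells held to sustain an acute myeloid leukemia (AML). They were taken by name from the 27179 genes of the deposited table. By role they are the heavy chain Ighm and the signalling chains Cd79a and Cd79b, the surrogate light chain genes Vpreb1 and Igll1 with their relative Vpreb3, the transcription factors Ebf1 and Pax5, and the recombination genes Rag1 and Dntt. They were selected on the RPKM levels of these same 4 libraries, which were known when the set was proposed, so differences between genotypes in these genes are descriptions and carry no test.

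The B7-H4-null group and the wild-type group held 2 libraries each, replicates 1 and 2. B7-H4 is a ligand of the B7 family, encoded by Vtcn1. All 4 samples were LSCs of a murine AML model on the C57BL/6 strain, sorted from bone marrow as cells positive for yellow fluorescent protein (YFP), the myeloid integrin Mac-1 and the receptor c-Kit. The sort named no lymphoid marker. The origin of the leukemia, the reach of the B7-H4 deletion (leukemia cells, host or both) and the number of animals behind a sample are not stated in the labels. The unit is RPKM, in which reads are divided by the length of the gene and the size of the library, so values compare levels between genes as well as between libraries. The totals behind that scaling were 9419425 to 10814448 reads, recovered from the steps between low values, and read numbers given below rest on them. Vtcn1 itself had 1 read in each B7-H4-null library and 0 reads in each wild-type library, too few to check the genotype labels. The sort markers were present in all 4 libraries, with Kit at 7.19 to 24.01 RPKM and Itgam, the alpha chain of Mac-1, at 59.9 to 114 RPKM.

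In a pro-B cell, E proteins and Ebf1 switch on the early B program and Pax5 then fixes the B cell fate. Rag1 and Rag2 cut the immunoglobulin genes, and Dntt adds untemplated bases at the joints. A joined heavy chain (Ighm) is first displayed with the surrogate light chain of Vpreb1 and Igll1 and with the signalling chains Cd79a and Cd79b, forming the pre-B cell receptor, before a true light chain (kappa or lambda) replaces the surrogate. Transcription can also run through the Ighm constant region before any joining, and reads summed over that gene do not tell such germline transcripts from joined ones. In bulk RNA, fewer cells of a type and less RNA per cell cannot be told apart.

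B7-H4-null replicate 1 stood apart from the other 3 libraries in antibody genes outside this set, described below. Fitted differences without it are therefore given for Ighm, Cd79b and Vpreb1, but not for genes outside the set. The 10 genes split sharply by level. Ighm and Cd79b were well read in every library, at 9.99 to 68.7 RPKM. Vpreb1 and Vpreb3 exceeded 1 RPKM in at least 1 library, and the other 6 genes stayed below 1 RPKM in all 4, with Pax5 and Dntt at 0 throughout. The test took the 12107 genes that reached 1 RPKM in 2 or more libraries, and 3 of the 10 met this filter, namely Ighm, Cd79b and Vpreb1. Vpreb1 met it only through the B7-H4-null libraries, which biases any count over the 3. With limma, 0 of the 3 passed an adjusted p of 0.05, where 0.0991% of all tested genes did (0.0413% higher and 0.0578% lower in B7-H4-null). Voom, a weighted fit on recovered reads, also called 0 of them against 0.132% of all (0.0496% higher and 0.0826% lower). Without adjustment, 2 of the 3 had a p under 0.05, both higher, against 12.3% of all tested genes (612 or 5.05% higher and 872 or 7.2% lower, or 781 and 644 genes after median-ratio scaling). Because the members were picked with this contrast in view, nothing is read from these counts.

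**Figure D1:**
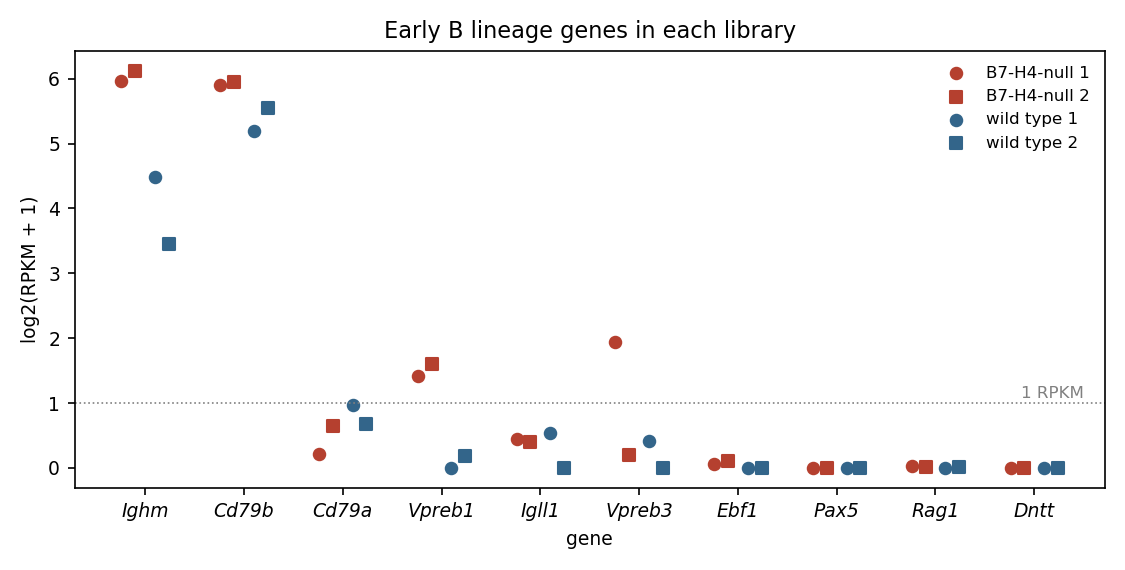
Level of each early B lineage gene as log2(RPKM + 1) (vertical axis) by gene (horizontal axis). Each point is 1 library, B7-H4-null in red at the left and wild type in blue at the right, with circles for replicate 1 and squares for replicate 2; the dotted line marks 1 RPKM. Ighm and Cd79b stand far above the other 8 genes in all 4 libraries, and for both the B7-H4-null points lie above the wild-type points.

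Ighm encodes the constant region of the mu heavy chain (chromosome 12, 113418826 to 113422730 on GRCm38.p6, gene ID 16019). It had 61.1 and 68.7 RPKM in B7-H4-null LSCs, against 21.4 and 9.99 RPKM in the wild-type libraries. The groups did not overlap, and the wild-type libraries differed from each other more than the B7-H4-null ones did. In all tested genes, both B7-H4-null libraries lay above both wild-type libraries for 16.0% and below both for 28.0%. The means were 64.9 ± 5.39 RPKM in B7-H4-null and 15.7 ± 8.04 RPKM in wild type (SD, n = 2 each), 4.14-fold higher in B7-H4-null LSCs, with a log2 difference of 2.07 ± 0.368 (SE) on the log2(RPKM + 1) scale. The values rest on 858 and 1108 reads in B7-H4-null and on 323 and 148 reads in wild type. In rank, Ighm lay above 92.9% of the 20517 genes read in any library in each B7-H4-null library, and above 78.6% and 65.9% of them in the wild-type libraries. With either B7-H4-null library left out, the log2 difference was 1.99 (replicate 2 out) or 2.15 (replicate 1 out). It was 2.58 without wild type replicate 1 and 1.56 when replicate 2 of that genotype was dropped.

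The genes next to Ighm on the heavy chain locus showed another order of libraries. Ighd, the delta constant region that lies 2.50 kb away and marks mature B cells, had 0.105 and 0.275 RPKM in B7-H4-null, against 0.196 and 0.2 RPKM in wild type. The level of Ighm over that of Ighd was 580 and 249.7 in the B7-H4-null libraries, against 109 and 50.03 in the wild-type libraries, although the Ighd values rest on 1 to 3 reads each. The joining segments Ighj1 to Ighj4, short exons that a joined heavy chain transcript carries 1 of, gave a different order again. Their summed level was 2.21 RPKM in B7-H4-null replicate 1 and 87.0 RPKM in B7-H4-null replicate 2, against 47.3 and 35.5 RPKM in wild type replicates 1 and 2. The segments are only 48 to 54 bases long, so these sums rest on few reads. Each segment had 10 to 15 reads in B7-H4-null replicate 2, against 3 to 9 and 2 to 8 reads in wild type replicates 1 and 2. Of the 4 joining segments, 3 had no read in B7-H4-null replicate 1 and the other, Ighj3, had 1 read. Ighm was about as high in B7-H4-null replicate 1 as in replicate 2, with almost no reads on the joining segments.

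Other antibody genes separated B7-H4-null replicate 1 from the remaining 3 libraries. Igkc, the kappa light chain constant region, had 0.995 and 184 RPKM in B7-H4-null LSCs, against 60.7 and 77.7 RPKM in the wild-type libraries. Igha, the constant region of IgA, had 0 and 102 RPKM in B7-H4-null, against 51.5 and 28.4 RPKM in wild type. Jchain, which links secreted IgM and IgA, had 0 and 9.99 RPKM in B7-H4-null, against 3.70 and 3.06 RPKM in wild type. All 3 are products of antibody-secreting cells, and for all 3 the groups overlapped because replicate 1 of B7-H4-null was the lowest library and replicate 2 the highest. Igha, with the J and V segment genes, was added after its values were seen.

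Variable segments showed the same split. Of 225 V segment genes of the heavy, kappa and lambda loci in the table, 10 and 98 were above 0 in the B7-H4-null libraries, against 67 and 59 in the wild-type libraries. Their summed level was 4.44 and 156 RPKM in B7-H4-null, against 74.7 and 79.2 RPKM in wild type. Of the 102 kappa V segments, 1 was above 0 in B7-H4-null replicate 1 and 49 in B7-H4-null replicate 2, against 31 and 25 in the wild-type libraries. The level of Igkc over that of Ighm was 0.0163 and 2.68 in B7-H4-null, against 2.84 and 7.78 in wild type. In the library with nearly no light chain, V segment or Igha reads, Ighm stood at 61.1 RPKM, above both wild-type libraries. The part of antibody-secreting cells in the Ighm reads of the other 3 libraries was not tested.

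**Figure D2:**
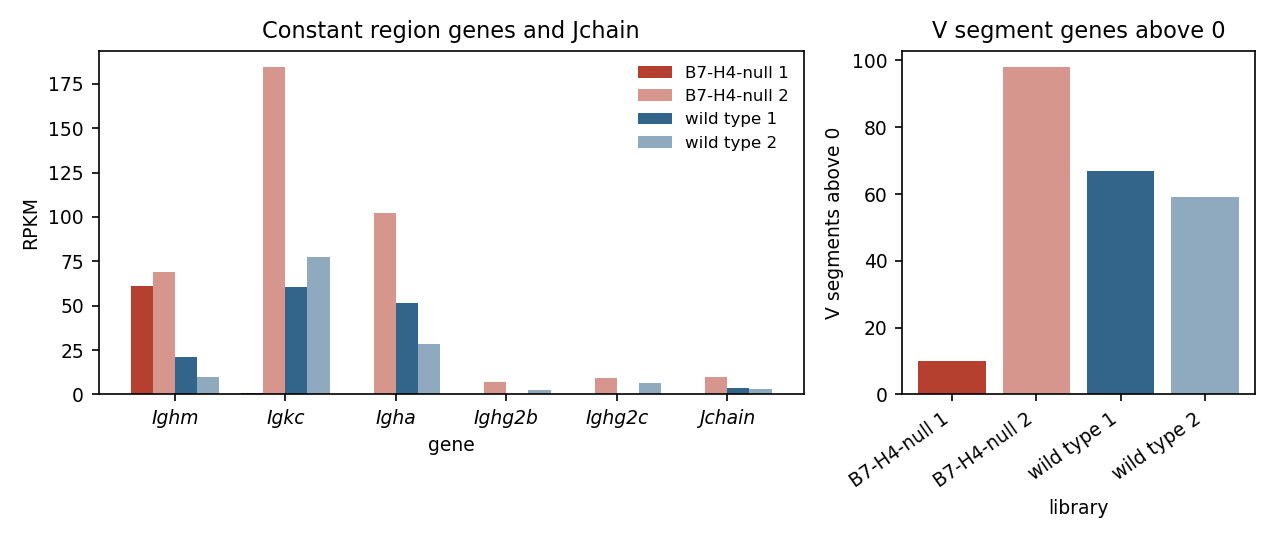
Left, level in RPKM (vertical axis) of Ighm, other antibody constant region genes and Jchain (horizontal axis) in the 4 libraries, B7-H4-null in red before wild type in blue, with replicate 2 in the paler shade. Right, number of V segment genes above 0 (vertical axis) in each library (horizontal axis), 10 and 98 in B7-H4-null and 67 and 59 in wild type. Ighm is high in both B7-H4-null libraries, whereas Igkc, Igha and Jchain are at or near 0 in B7-H4-null replicate 1 alone.

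Cd79b and Cd79a encode the paired signalling chains (Ig-beta and Ig-alpha) that carry the signal of the B cell receptor and are made together in B cells. Cd79b (chromosome 11, 106311341 to 106314562, gene ID 15985) had 58.7 and 60.7 RPKM in B7-H4-null, against 35.4 and 45.5 RPKM in wild type. The groups did not overlap. The means were 59.7 ± 1.47 RPKM in B7-H4-null and 40.5 ± 7.18 RPKM in wild type (SD, n = 2 each), a ratio of 1.48 and a log2 difference of 0.56 ± 0.255 (SE). Its reads, 662 and 787 in B7-H4-null and 430 and 542 in wild type, were of the same order as those of Ighm. Dropping wild type replicate 1 gave a log2 difference of 0.38, and dropping replicate 2 of that genotype gave 0.74. Without B7-H4-null replicate 1 it was 0.59.

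Cd79a (chromosome 7, 24897497 to 24901858, gene ID 12518) was close to silent beside its partner. It had 0.16 and 0.557 RPKM in B7-H4-null, against 0.966 and 0.607 RPKM in wild type, from 2 and 8 reads in B7-H4-null, against 13 and 8 reads in wild type. Here the B7-H4-null libraries were the lower ones, without overlap in RPKM. The ratio of reads, scaled to the totals, was 0.473 with an exact 95% binomial interval of 0.199 to 1.05, an interval that covers counting error only and spans 1. Cd79b stood 367 and 109 times above Cd79a in the B7-H4-null libraries, against 36.6 and 75.0 times in the wild-type libraries. Cd79a lies between Rps19 and Arhgef1, with Arhgef1 lying 1.13 kb from it, and both neighbours were strongly read, at 161 to 360.3 RPKM. Whether any Cd79a reads stem from them was not tested.

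The surrogate light chain genes Vpreb1 and Igll1 lie 4.42 kb apart on chromosome 16 and are known targets of Ebf1 and the E proteins, and Vpreb3, on chromosome 10, belongs to the same family. Their upstream bases are shown as a description only. In wild type the 3 genes had 0 to 4 reads per library, too few to rank them by level. Whether the sequences bear on the levels was not tested. The sequences are the 250 bases before a transcription start that RefSeq's promoter table lists for each gene on GRCm38.p6, on the minus strand for Vpreb1 (chr16:16869256-16869505) and Igll1 (chr16:16863986-16864235) and on the plus strand for Vpreb3 (chr10:75948050-75948299). For Vpreb1 and Igll1 that start is the edge of the gene. For Vpreb3 it lies inside the span that NCBI's gene table gives for the gene (75943024 to 75949657), so the printed bases are upstream of that start but within the span. Capitals mark matches, on either strand, to the core of the Ebf1 palindrome CCCNNGGG, to the E protein boxes CAGCTG and CAGGTG, or to the octamer ATGCAAAT of Oct factors, and no 2 matches overlap.
Vpreb1: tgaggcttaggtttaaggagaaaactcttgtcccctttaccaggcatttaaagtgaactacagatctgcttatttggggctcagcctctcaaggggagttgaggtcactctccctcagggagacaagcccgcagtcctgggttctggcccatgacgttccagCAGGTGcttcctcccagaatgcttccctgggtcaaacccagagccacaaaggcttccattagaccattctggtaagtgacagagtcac
Igll1: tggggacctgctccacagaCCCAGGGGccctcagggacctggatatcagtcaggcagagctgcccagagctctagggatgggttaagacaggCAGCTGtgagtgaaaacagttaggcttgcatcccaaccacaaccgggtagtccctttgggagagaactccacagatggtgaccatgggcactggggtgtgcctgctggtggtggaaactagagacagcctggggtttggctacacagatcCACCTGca
Vpreb3: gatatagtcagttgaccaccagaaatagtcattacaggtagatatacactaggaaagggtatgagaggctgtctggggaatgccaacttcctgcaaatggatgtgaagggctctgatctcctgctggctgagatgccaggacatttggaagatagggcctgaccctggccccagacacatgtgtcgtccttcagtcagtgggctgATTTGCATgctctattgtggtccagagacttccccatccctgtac

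Vpreb1 held 1 E box, starting 88 bases before the gene. Igll1 held 1 Ebf1 core match at 231 bases and 2 E boxes at 158 and 8 bases before it. Vpreb3 held 1 octamer, starting 45 bases before the start in the promoter table and thus also inside the gene's span. Among the 32851 upstream regions of the same length in the RefSeq table, 11.8% held the Ebf1 core, 27.7% an E box and 1.60% the octamer. Among the other members with an entry, Rag1 held 2 E boxes and Cd79a held 1, and the upstream regions of Ebf1, Pax5 and Dntt held none of these letters. A match describes the sequence and says nothing of binding in these cells.

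Vpreb1 (chromosome 16, 16868401 to 16869255, gene ID 22362) had 1.66 and 2.05 RPKM in B7-H4-null, against 0 and 0.131 RPKM in wild type. That is 12 and 17 reads in B7-H4-null, against 0 and 1 read in wild type. Both B7-H4-null libraries were higher, without overlap. Scaled to the totals, 28.8 times as many reads fell on it in B7-H4-null (exact 95% binomial interval 4.77 to 1175, counting error only), and the log2 difference was 1.42 ± 0.28 (SE) on the log2(RPKM + 1) scale. That scale understates a change at such low levels, and with a pseudocount of 0.1 the difference was 3.68. Vpreb1 was read in B7-H4-null replicate 1 as well, the library with almost no Igkc, and its log2 difference was 1.52 without that library. Its close copy Vpreb2 had 0 and 0.216 RPKM in B7-H4-null and 0 in both wild-type libraries, and reads can be shared between the copies, so the split between them is uncertain.

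Igll1, the lambda5 chain that pairs with the Vpreb1 product (chromosome 16, 16860671 to 16863985, gene ID 16136), had 0.366 and 0.319 RPKM in B7-H4-null, against 0.453 and 0 RPKM in wild type. This is 3 and 3 reads in B7-H4-null, against 4 and 0 reads in wild type, and the groups overlapped. Scaled reads had a ratio of 1.49 (exact 95% interval 0.353 to 7.17). A difference in Igll1 was therefore not detectable at this depth. Top3b, which lies 1.47 kb from Vpreb1 and encodes a topoisomerase, had 60.0 and 39.3 RPKM in B7-H4-null, against 76.2 and 38.3 RPKM in wild type, and these groups overlapped.

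Vpreb3 (chromosome 10, 75943024 to 75949657, gene ID 22364), which in B cell precursors binds newly made immunoglobulin chains inside the cell, was high in 1 library. It had 2.82 and 0.154 RPKM in B7-H4-null, against 0.328 and 0 RPKM in wild type, from 16 and 1 reads in B7-H4-null, against 2 and 0 reads in wild type. The groups overlapped, because B7-H4-null replicate 2 lay below wild type replicate 1. The pooled ratio of reads was 8.43 (exact 95% interval 2.0 to 75.3), and it rests on B7-H4-null replicate 1.

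**Figure D3:**
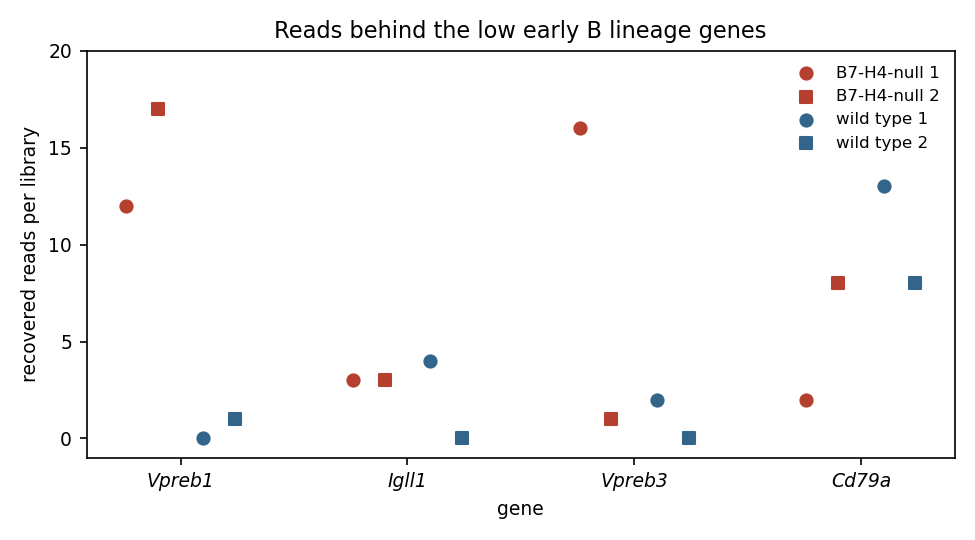
Recovered reads per library (vertical axis) for Vpreb1, Igll1, Vpreb3 and Cd79a (horizontal axis). Points are single libraries, B7-H4-null in red at the left and wild type in blue at the right, circles for replicate 1 and squares for replicate 2. Vpreb1 has 12 and 17 reads in B7-H4-null against 0 and 1 in wild type, while Vpreb3 is high in B7-H4-null replicate 1 only, with 16 reads.

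The transcription factors that drive this program were at the limit of detection. Ebf1 (chromosome 11, 44618100 to 45008096, gene ID 13591) had 0.0472 and 0.0823 RPKM in B7-H4-null and was listed at 0 in both wild-type libraries. For Ebf1 the steps fix the reads only up to a common factor, with 1 and 2 reads as the smallest whole numbers, so no fold is given. Pax5 (chromosome 4, 44524748 to 44710694, gene ID 18507) had no read in any library. A count of 0 allows up to 3 reads, or 0.318 and 0.277 RPM (reads scaled to the library total alone) in the B7-H4-null libraries and 0.296 and 0.302 RPM in the wild-type libraries.

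The recombination genes were no higher. Rag1 (chromosome 2, 101638252 to 101649532, gene ID 19373), the catalytic subunit of the recombinase, had 1 and 1 read in B7-H4-null, against 0 and 1 read in wild type, or at most 0.0159 RPKM. Its partner Rag2 had 0.125 and 0.0818 RPKM in B7-H4-null, against 0.0581 and 0.0593 RPKM in wild type. Dntt, the template-free polymerase (chromosome 19, 41029275 to 41059525, gene ID 21673), had no read in any library, with the same limits as Pax5. Differences between the genotypes in Ebf1, Pax5, Rag1 or Dntt were not detectable at this depth.

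The wider set of genes around the pathway was described with 10 further lists, 107 genes in all, of which 106 were in the table and 51 were tested. Limma called 0 of the 51 and voom 0, with 9 higher and 2 lower before adjustment (p under 0.05), where all tested genes gave 5.05% higher and 7.2% lower, or 781 and 644 genes after median-ratio scaling. Both null libraries lay above both wild-type libraries for 14 of them (27.5%, against 16.0% of all tested genes) and below both for 12 (23.5%, against 28.0%). The 14 include Il7r and Mzb1, which met the filter only through the B7-H4-null libraries and so had to differ, and nothing is read from these shares. Their median log2 difference was −0.03, and that of all tested genes −0.09. Leaving out wild type replicate 2 raised the log2 difference of Flt3 from 2.73 to 3.37 and that of Tcf4 from 2.05 to 2.82. For both genes, the library left out was the wild-type one nearer to B7-H4-null. That fit has a single wild-type library, which is assumed to vary like the B7-H4-null pair that alone supplies the spread.

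Among other B lineage factors, 6 of 13 were tested and 0 were called, with 0 above and 1 below both wild-type libraries. The median log2 difference was −0.20, and its sign turned under 3 of the alternatives. Tcf3, the E protein E2A, had 32.8 and 41.3 RPKM in B7-H4-null, against 37.4 and 37.7 RPKM in wild type. Ikzf1, the Ikaros factor of lymphoid and other blood lineages, had 56.3 and 76.1 RPKM in B7-H4-null, against 86.4 and 95.9 RPKM in wild type (limma adjusted p = 0.542). Irf8, a factor of B and myeloid cells, had 59.6 and 79.1 RPKM in B7-H4-null, against 33.5 and 65.7 RPKM in wild type, and Pou2f2, the Oct2 factor, had 6.86 and 14.0 RPKM in B7-H4-null, against 4.85 and 8.76 RPKM in wild type. These levels stand beside Ebf1 at 0.0823 RPKM or less and Pax5 at 0.

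Of the kinases and adaptors of pre-B receptor signalling, 7 of 12 were tested, with 0 called, a median log2 difference of −0.01, 1 member above and 2 below both wild-type libraries. The most abundant are shared with myeloid cells. Plcg2, the phospholipase of this pathway, had 82.5 and 68.1 RPKM in B7-H4-null, against 74.8 and 76.3 RPKM in wild type, and Btk, a Tec kinase, 75.3 and 63.7 RPKM in B7-H4-null, against 71.3 and 61.8 RPKM in wild type. Syk had 63.5 and 56.3 RPKM in B7-H4-null, against 73.0 and 73.6 RPKM in wild type, and Lyn, a Src family kinase, 29.9 and 47.4 RPKM in B7-H4-null, against 39.0 and 66.0 RPKM in wild type. Il7r, the receptor for the B precursor cytokine interleukin-7, was the 1 member above both, singled out after its level was known. It had 1.39 and 1.30 RPKM in B7-H4-null, against 0.399 and 0.408 RPKM in wild type, and met the filter only through the B7-H4-null libraries (limma adjusted p = 0.359).

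Of the genes of V(D)J recombination and end joining, 9 of 12 were tested and 0 called, with a median log2 difference of 0.26, 3 above and 1 below both wild-type libraries. Xrcc6, the Ku70 subunit of the end-joining complex, had 31.2 and 34.8 RPKM in B7-H4-null, against 27.2 and 20.6 RPKM in wild type (limma adjusted p = 0.542). Hmgb2 and Hmgb1, DNA-bending cofactors of the recombinase, had 57.0 and 44.4 RPKM and 10.9 and 16.3 RPKM in B7-H4-null, against 42.3 and 41.2 RPKM and 9.73 and 10.98 RPKM in wild type. Poll, a repair polymerase, had 10.998 and 9.14 RPKM in B7-H4-null, against 10.1 and 7.54 RPKM in wild type. These genes serve DNA repair or chromatin in most cells, whereas Rag1, Rag2 and Dntt act in lymphocyte precursors.

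Most markers of mature B cells were low. Of 12 listed, 5 were tested and 0 called, with a median of 0.12, and 7 stayed below 1 RPKM in every library, among them Ms4a1 (CD20) at 0.045 RPKM or less. Cd37, a tetraspanin of many leukocytes, had 203 and 201.4 RPKM in B7-H4-null, against 221 and 157 RPKM in wild type. Cd180 had 9.90 and 6.84 RPKM in B7-H4-null, against 5.72 and 4.98 RPKM in wild type, and Siglecg had 3.21 and 2.38 RPKM in B7-H4-null, against 6.03 and 2.51 RPKM in wild type. H2-Ob, an MHC class II-like chain of B cells singled out after its level was known, had 2.66 and 2.42 RPKM in B7-H4-null, against 1.22 and 1.21 RPKM in wild type (limma adjusted p = 0.371). The summed level of the list was 220.1 and 398 RPKM in B7-H4-null, against 295 and 244 RPKM in wild type. Igkc is itself a member of this list, with 0.995 and 184 RPKM of the sums in B7-H4-null. The order of libraries in these sums is therefore not separate from that of Igkc.

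The plasma cell list had 3 of 7 members tested and 0 called. Mzb1, a chaperone of antibody assembly that is also made by B cells and plasmacytoid dendritic cells, had 2.70 and 8.68 RPKM in B7-H4-null, against 0.653 and 0.333 RPKM in wild type (log2 difference 2.01 ± 0.465, SE, limma adjusted p = 0.229), and met the filter only through the B7-H4-null libraries. Unlike Jchain, it lay above both wild-type libraries in B7-H4-null replicate 1. Xbp1, a factor of secretory cells, had 57.4 and 111 RPKM in B7-H4-null, against 115 and 122 RPKM in wild type, and Prdm1, a plasma cell factor, had 0.888 and 0.0539 RPKM in B7-H4-null, against 0.0958 and 0.117 RPKM in wild type. The summed level of the list was 61.5 and 129.7 RPKM in B7-H4-null, against 119 and 126 RPKM in wild type. Xbp1 made up most of each sum, so these sums mainly reflect Xbp1. Tnfrsf17, a defining marker, was at 0 in all 4.

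The remaining lists mark other cells that the samples could hold. Of 16 T and NK cell genes, 14 stayed below 1 RPKM in every library, 2 were tested and 0 called, with Cd8b1 at 0 throughout. Nkg7, a granule gene, had 21.02 and 39.2 RPKM in B7-H4-null, against 31.4 and 29.1 RPKM in wild type, and Cd247 had 1.06 and 1.37 RPKM in B7-H4-null, against 2.18 and 2.51 RPKM in wild type. Lck, a T cell kinase, and Bcl11b, a T cell factor, reached at most 0.739 and 0.983 RPKM. Of 7 erythroid genes in the table, 0 were tested and the summed level was 4.12 and 1.49 RPKM in B7-H4-null, against 2.19 and 2.75 RPKM in wild type, with the globin genes Hbb-bs, Hba-a1 and Hba-a2 and the erythroid factor Klf1 leading.

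Plasmacytoid dendritic cells can transcribe Ighm, Rag1 and Dntt. Of their 10 listed markers, 3 were tested and 0 called, with a median of 0.59 and 2 above both wild-type libraries. Tcf4, the E protein E2-2 that specifies these cells and also acts in B cell precursors, had 24.5 and 37.5 RPKM in B7-H4-null, against 3.45 and 11.8 RPKM in wild type (log2 difference 2.05 ± 0.505, SE, limma adjusted p = 0.25). Bst2 had 44.5 and 69.4 RPKM in B7-H4-null, against 33.3 and 40.1 RPKM in wild type, and Runx2 15.2 and 19.5 RPKM in B7-H4-null, against 13.5 and 16.0 RPKM in wild type. Tlr9 had 1.16 and 0.586 RPKM in B7-H4-null, against 0.625 and 0.899 RPKM in wild type. The other 6 markers, named after their values were seen, stayed below 1 RPKM in every library. The defining marker Siglech had 0 and 0.231 RPKM in B7-H4-null and 0 in both wild-type libraries, and Klk1 was at 0 in all 4. Cox6a2 (5 and 6 reads in B7-H4-null, against 1 and 2) and Pacsin1 (15 and 11 reads, against 0 and 4) were higher in both B7-H4-null libraries. Ccr9 and Ly6d were lower in both, from at most 4 reads per library. The summed level of the list was 86.8 and 128 RPKM in B7-H4-null, against 51.6 and 69.8 RPKM in wild type. Bst2, Tcf4 and Runx2 made up most of each sum.

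Genes of lymphoid-primed progenitors, the stage before B commitment, were listed too. Of 8, 6 were tested and 0 called, with a median of 0.43, 3 above and 2 below both wild-type libraries. Flt3, the receptor tyrosine kinase of that stage, had 99.3 and 103 RPKM in B7-H4-null, against 8.90 and 23.0 RPKM in wild type (limma adjusted p = 0.13). Cd34 had 73.2 and 70.1 RPKM in B7-H4-null, against 27.7 and 42.7 RPKM in wild type (limma adjusted p = 0.295). Satb1, a chromatin organiser of lymphoid priming singled out after its level was known, had 10.1 and 9.25 RPKM in B7-H4-null, against 1.60 and 2.88 RPKM in wild type (limma adjusted p = 0.134). Ptprc, the pan-leukocyte antigen CD45, and Cd24a did not follow them. Ptprc had 52.5 and 48.3 RPKM in B7-H4-null, against 58.6 and 67.9 RPKM in wild type, and Cd24a 111 and 53.0 RPKM in B7-H4-null, against 119 and 63.6 RPKM in wild type. The part of these genes in the Ighm and Vpreb1 levels was not tested.

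**Figure D4:**
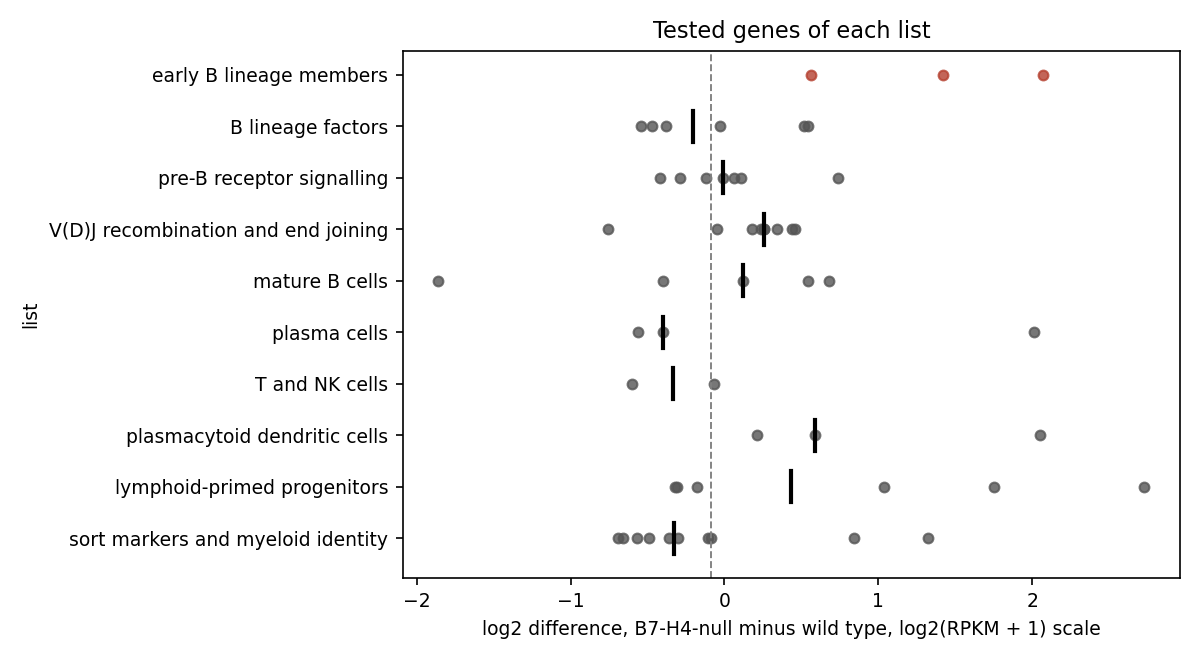
Log2 difference between B7-H4-null and wild type on the log2(RPKM + 1) scale (horizontal axis) for the tested genes of each list (vertical axis). Each point is 1 gene, with the early B lineage genes in red in the top row and the other lists in grey below; short black bars give the median of each other list, and the dashed line gives the median of all tested genes, −0.09. The 3 tested early B lineage genes lie at 0.56, 1.42 and 2.07, and the farthest right point is Flt3 at 2.73.

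The most abundant myeloid genes were far above the early B lineage genes in every library. Of 10 sort and myeloid genes, all 10 were tested and 0 called, with a median of −0.33, 2 above and 4 below both wild-type libraries. Elane, the neutrophil elastase, had 1302 and 2749 RPKM in B7-H4-null, against 2810.4 and 3339 RPKM in wild type, and Mpo, the myeloperoxidase, 2153 and 3388 RPKM in B7-H4-null, against 1194 and 979.8 RPKM in wild type. Lyz2 had 304 and 615 RPKM in B7-H4-null, against 364 and 783 RPKM in wild type. Spi1, which encodes PU.1, had 203 and 308.5 RPKM in B7-H4-null, against 327 and 421 RPKM in wild type. The highest early B lineage gene, Ighm in B7-H4-null replicate 2, was at 68.7 RPKM.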

How the data were processed

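RNA-seq of 4 sorted LSC samples was analysed, 2 B7-H4-null and 2 wild type. Per the labels' protocols, libraries followed the TruSeq RNA version 2 kit and were read on a HiSeq2500. Per the submitters' processing notes, the aligner was TopHat2 2.0.12 and the build GRCm38. How genes were counted (program, annotation, strand) was not given in the sources used here, and the kit does not mark strand, so sense and antisense reads cannot be told apart. The authors deposited RPKM values per Entrez gene ID. The values were taken as RPKM, and their columns sum to 521931 to 558518. Symbols and coordinates are NCBI's for GRCm38.p6, matched for 25275 of the 27179 IDs.

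Library totals were the values at which the lowest RPKM steps became whole gene lengths. With them, all 14608 genes above 0 in every library gave whole reads within 0.001 read (for very high counts, within a relative tolerance of 2e-07). Among multiples of a gene length, the one nearest to GENCODE transcript lengths was taken, with common factors of the reads penalised.

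The fit was limma 3.58.1 in R 4.3.3 on log2(RPKM + 1), genotype as the only term, with a mean-variance trend and two-sided tests. It took genes reaching 1 RPKM in 2 or more libraries, and Benjamini-Hochberg adjusted p-values were read at 0.05. No log2 difference is given for a gene below the filter. The fit was tested on simulated data, with a fixed spread and with changed genes drawn only from well-read genes. That run does not show how changes in genes with few reads are found. Intervals are exact Clopper-Pearson at 95%, and a count of 0 allows 3 reads; both cover counting error only, since reads are not independent molecules. Nothing in the labels says that replicates are separate animals. SDs and p-values therefore describe the spread of these 4 samples alone, which may be technical. With 2 against 2 samples the smallest two-sided p of an exact permutation test is 0.333, and none was run.

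The members, the 10 other gene lists and the tests were chosen with earlier results of these data known. Named are all 10 members, the 4 members of each other list with the highest mean RPKM over the 4 libraries, and genes marked as named after their values were seen. Genes used as checks (Vtcn1, the sort markers, markers of other cell types) and neighbours on the chromosome are named beside the result they touch. They were also chosen after their values were seen. Alternatives were other pseudocounts, filters, scalings, no trend, the replicate number as a block, voom on recovered reads and leaving out each library. Promoter sequences were matched for 8 of the 10 members, all but Ighm and Cd79b. Some members of the other lists are not reported here by name.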

Additional observations from a re-analysis of the deposited data

How the results depend on the processing

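Over the alternatives tried, the log2 differences were 1.56 to 2.58 for Ighm, 0.38 to 0.74 for Cd79b and 1.32 to 4.09 for Vpreb1. Vpreb1 was not in the fit with the filter at 5 RPKM. All stayed above 0, but for each of these genes both B7-H4-null libraries lay above both wild-type libraries. Their sign therefore could not turn with another pseudocount, filter, trend or block, or with a library left out. Only the sizes of the differences are described by these ranges. The highest Vpreb1 values came with voom (4.09) and pseudocounts of 0.1 and 0.5 (3.68 and 2.06), which weigh low values differently by construction. The number of early B lineage genes called, 0, ranged from 0 to 1 when single libraries were left out (Ighm, without wild type replicate 1), and that of the other lists, 0, from 0 to 2. In such a fit the lone library of a genotype is assumed to vary like the other pair. Over all genes, 5 were called higher and 7 lower; leaving out single libraries gave 0 to 36 higher and 0 to 20 lower. Without B7-H4-null replicate 1 or 2 limma called 0 genes, with 489 higher and 448 lower or 619 and 857 at an unadjusted p under 0.05. Without the filter on low values limma called 0 higher and 0 lower of 20517 genes, against 799 and 1088 at an unadjusted p under 0.05, and voom with the filter called 6 and 10. The cause of these shifts was not tested. With the replicate number as a block, 12 genes were called higher and 9 lower, and 0 early B lineage genes. Same-numbered libraries deviated together from their group means (r = 0.247 across 12107 genes, which are not independent), but only 2 pairs exist and the labels do not pair them. List medians changed sign under 3 alternatives for the B lineage factors (−0.42 to 0.25), under 2 for pre-B receptor signalling, mature B cells and plasma cells (−1.03 to 1.33 for the last) and under 1 for V(D)J recombination. Depth limits Ebf1, Pax5, Rag1, Dntt and Igll1, which had at most 4 reads per library where reads could be fixed.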

Other observations

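The surroundings of Vpreb3 on chromosome 10 were looked at after the values were seen, within 15 kb on either side. Chchd10, a mitochondrial protein gene that lies 5.27 kb from Vpreb3, had 18.6 and 21.5 RPKM in B7-H4-null, against 2.81 and 2.97 RPKM in wild type (log2 difference 2.43, limma adjusted p = 0.0318). That call was lost without B7-H4-null replicate 1, without B7-H4-null replicate 2 and without the filter on low values, where limma called 0 genes. The gene models Gm867 and Gm5134, 2.35 kb and 4.84 kb away, had 0.699 and 0.381 RPKM and 0.711 and 0.391 RPKM in B7-H4-null, against 0 in both wild-type libraries for Gm867 and 0.104 and 0.106 RPKM for Gm5134. Mmp11, a matrix protease gene 10.5 kb away, had 0.331 and 0.0412 RPKM in B7-H4-null and was listed at 0 in wild type. All 4 neighbours in the table were thus higher in both B7-H4-null libraries than in both wild-type libraries. Of all tested genes 16.0% were, but 3 of the 4 were below the filter, so that share is not their background. The spans of Chchd10 and Gm867 also run into each other. The locus was chosen after its values were seen, and nothing is read from this count. Vpreb3 itself overlapped between the groups. Gene models are not independent of one another along a locus, and whether reads cross from one to the next was not tested.

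The other heavy chain constant regions, which follow class switching, were also seen mainly outside B7-H4-null replicate 1. Ighg2c, a constant region of IgG, had 0 and 9.37 RPKM in B7-H4-null, against 0 and 6.60 RPKM in wild type. Ighg2b had 0.0869 and 6.89 RPKM in B7-H4-null, against 0.242 and 2.47 RPKM in wild type. Wild type replicate 1 therefore had Igha but almost no IgG reads, while B7-H4-null replicate 2 and wild type replicate 2 had both. The lambda constant region Iglc1 had 0 and 5.20 RPKM in B7-H4-null, against 5.24 and 1.57 RPKM in wild type. Constant regions of IgG subclasses are close copies, so reads can be shared between them.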
